A study of Mus musculus with 11 samples.

Results

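The chromatin sites of SOX2 in mouse epiblast stem cells (EpiSCs) were compared between cells kept in activin and cells from which activin had been withdrawn. The members are all SOX2 ChIP-seq peaks deposited for the 2 cultures that lie on chromosomes 1 to 19 and X of the mouse genome build mm9. There were 63672 peaks in the EpiSC list and 87781 in the activin-free list, out of 1004445 peaks in the 10 lists of the series. A peak was taken as shared where it overlapped a peak of the other SOX2 list by at least 1 bp, and otherwise as present in 1 list only. The series profiled SOX2, ZIC2, OTX2, POU5F1 and POU3F1 in both cultures, with 1 library for each transcription factor (TF) in each culture.

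Both cultures were of strain 129/Sv, feeder-free, and kept in a medium supplemented with N2 and B27. For the EpiSC culture, activin (20 ng/ml) and Fgf2 (10 ng/ml) were added. The activin-free culture had been without activin for 18 h at harvest. No Fgf2 concentration is recorded for it, so whether Fgf2 was the same in both cultures is not known here. In both, SOX2 was expressed from a transiently transfected pCAGGS plasmid as a fusion with BLRP, a peptide that the biotin ligase BirA of the same plasmid biotinylates. The medium was changed after 8 h, the cells were fixed after 24 h, and streptavidin recovered the chromatin. The lists therefore show where tagged SOX2 supplied by a vector was bound, in a mixed population of cells that took up the plasmid. With 1 library in each culture, no value has a replicate error and no difference between the cultures could be tested. The lists hold no reads, so library depth is unknown, and a difference in depth or in recovery of chromatin cannot be told apart from a difference between the cultures. Intervals in brackets are 95% Wilson intervals, which cover counting error only.

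SOX2 is an HMG-box protein that bends DNA at short AT-rich sites and is needed in the epiblast and later in the neural plate. Activin signals through type I and type II receptors and SMAD2 and SMAD3, in place of the embryonic ligand Nodal, and holds EpiSCs in the primed pluripotent state. When this signal is removed, epiblast cells move toward neural plate development, in which SOX2 remains expressed.

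The sequences at the strongest members show the range of sites in the lists. Each is 201 bp of the plus strand of mm9, centered on the peak midpoint, and capitals mark the SOX 6-mer, ACAA followed by A or T and then by A or G, on either strand. The first pair are the leading shared peaks when pairs are ranked by the lower of their scores and peaks over Sox2 are left out. Both are tandem repeats, with units of 18 and 27 bp. The first holds no SOX 6-mer and the second holds 7, 1 in each unit.
Intron of Aven, chr2:112444107-112444307: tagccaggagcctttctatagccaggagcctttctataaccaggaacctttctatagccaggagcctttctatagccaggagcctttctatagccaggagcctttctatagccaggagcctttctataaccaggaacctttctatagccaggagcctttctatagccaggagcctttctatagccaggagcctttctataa
Intron of Fam155a, chr8:9297077-9297277: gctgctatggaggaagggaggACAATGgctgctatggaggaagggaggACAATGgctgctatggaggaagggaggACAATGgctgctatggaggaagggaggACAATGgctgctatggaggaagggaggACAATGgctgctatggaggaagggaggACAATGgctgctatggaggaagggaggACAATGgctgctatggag
The next were found in the EpiSC list only, and have the highest scores among such peaks for which sequence is given here. The first lies 3.20 kb upstream of Pou5f1, which encodes a central pluripotency TF, and the second in an intron of Bcas3. They hold 1 and 4 SOX 6-mers, respectively.
Upstream of Pou5f1, chr17:35639686-35639886: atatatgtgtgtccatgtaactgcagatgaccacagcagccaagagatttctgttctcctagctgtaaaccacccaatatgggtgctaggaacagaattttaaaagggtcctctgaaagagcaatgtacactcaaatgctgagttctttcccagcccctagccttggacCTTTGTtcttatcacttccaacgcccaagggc
Intron of Bcas3, chr11:85492199-85492399: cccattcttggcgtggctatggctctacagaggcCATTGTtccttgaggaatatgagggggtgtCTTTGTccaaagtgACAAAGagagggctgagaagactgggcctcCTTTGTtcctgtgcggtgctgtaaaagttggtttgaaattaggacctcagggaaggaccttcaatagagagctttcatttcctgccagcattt
The highest-scoring peaks found in the activin-free list only hold 2 and 0 SOX 6-mers.
Downstream of Ifna13, chr4:88288946-88289146: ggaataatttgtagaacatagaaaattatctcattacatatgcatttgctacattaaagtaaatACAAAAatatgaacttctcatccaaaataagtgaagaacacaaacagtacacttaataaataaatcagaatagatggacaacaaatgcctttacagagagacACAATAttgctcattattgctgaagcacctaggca
Intergenic, near Pisd, chr5:33015100-33015300: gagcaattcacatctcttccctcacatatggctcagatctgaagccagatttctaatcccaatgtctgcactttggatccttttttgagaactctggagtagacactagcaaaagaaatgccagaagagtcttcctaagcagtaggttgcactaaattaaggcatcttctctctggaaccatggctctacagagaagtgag
A site of modest score shared by both lists, in an intron of Nes, is shown for comparison. Nes encodes nestin, an intermediate filament protein of neural progenitors.
Intron of Nes, chr3:87778309-87778509: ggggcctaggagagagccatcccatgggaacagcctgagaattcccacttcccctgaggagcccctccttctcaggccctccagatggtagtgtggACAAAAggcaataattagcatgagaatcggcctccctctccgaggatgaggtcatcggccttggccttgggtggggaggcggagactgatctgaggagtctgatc
The last is a shared peak on a LINE-1 element, from a large group of peaks described below.
LINE-1 element, chr1:175674897-175675097: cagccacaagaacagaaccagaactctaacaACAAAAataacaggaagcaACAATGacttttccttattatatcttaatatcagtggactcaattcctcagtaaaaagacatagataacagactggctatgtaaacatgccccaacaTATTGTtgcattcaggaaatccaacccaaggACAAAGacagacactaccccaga

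In the EpiSC list, 49410 peaks (77.6%, 77.3 to 77.9%) were shared with the activin-free list, and 14262 were found in EpiSCs only. In the larger activin-free list, 49058 peaks (55.9%, 55.6 to 56.2%) were shared and 38723 were found there only. The activin-free list was 1.38 times as long, and when the 50000 highest-scoring peaks of each list were compared, the shares became 67.7% and 66.8%. Shared sites lay at closely matching positions. The midpoints of the 50171 overlapping pairs were a median of 72.0 bp apart, and 63.2% of pairs had midpoints within 100 bp of each other. The limit of 1 bp was rarely decisive. An overlap of at most 50 bp was found in 295 pairs, and a gap of at most 50 bp separated 144 EpiSC-only and 167 activin-free-only peaks from a peak of the other list.

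The other TFs did not show one common pattern. The shared shares of the EpiSC and activin-free lists were 78.9% and 91.2% for ZIC2, 78.1% and 67.5% for OTX2, 98.3% and 47.1% for POU5F1, and 82.6% and 86.8% for POU3F1. The SOX2 lists matched each other far more than they matched the other TFs. Of the EpiSC SOX2 peaks, between 4.83% (ZIC2) and 17.3% (OTX2) overlapped an activin-free peak of another TF.

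Sharing followed the MACS score, which is -10 log10 of the p-value of a peak and was at least 50 in both lists. Among the sixth of EpiSC peaks with the highest scores (190.82 to 3100.00), 98.8% (98.6 to 99.0%) were also in the activin-free list. The share dropped at each step, through 93.0%, 83.8%, 74.0% and 63.3%, to 52.7% in the sixth with the lowest scores. In the activin-free list it went from 94.6% through 78.8%, 59.4%, 44.5% and 33.0% to 24.9%. Thus nearly all strong EpiSC peaks had a partner, and most weak activin-free peaks had none. The plot of shared peaks by score shows both lists.

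**Figure D1:**
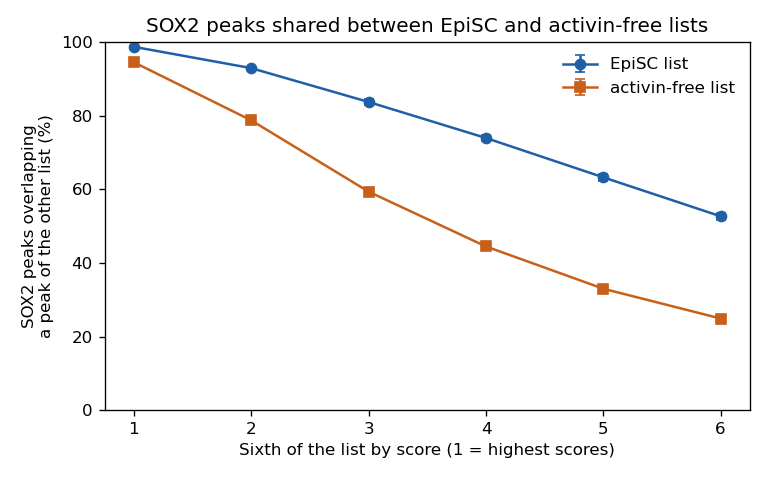
Share of SOX2 peaks (%, y axis) that overlap a peak of the other SOX2 list, by sixth of the list ordered by score (x axis, 1 has the highest scores), for the EpiSC list (circles) and the activin-free list (squares). Bars are 95% Wilson intervals, mostly smaller than the symbols. The share drops from 98.8% to 52.7% in the EpiSC list and from 94.6% to 24.9% in the activin-free list.

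Peaks in 1 list only were weaker and narrower than shared peaks. The median score was 65.8 for EpiSC-only peaks and 110 for shared peaks of that list, and 75.0 against 154 in the activin-free list. The median width was 611 bp for EpiSC-only and 760 bp for shared peaks, and 618 bp against 837 bp in the activin-free list. Peaks over 2000 bp made up 0.842% and 1.09% of the shared peaks of the 2 lists, but 0.0561% of EpiSC-only and 0.0723% of activin-free-only peaks. Among peaks of similar score the difference was smaller in the activin-free list, where shared peaks were the wider in all 6 sixths (1155 against 1048 bp in the highest and 517 against 509 bp in the lowest). In the EpiSC list it was not kept. In the sixth with the lowest scores the medians were 528 bp (EpiSC only) and 542 bp (shared), and in the highest they were 1273 bp (129 peaks) and 1135 bp.

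The scores of overlapping pairs were related but far from identical, with Spearman's rho of 0.55 across the 50171 pairs, which share both libraries and are not independent. The activin-free peak had the higher score in 35462 pairs (70.7%), and the median log2 ratio of the EpiSC to the activin-free score was -0.42. Of pairs with the EpiSC peak in its highest sixth, 68.6% had the activin-free peak in its own highest sixth, and 1.37% in its lowest. The plot of pair scores shows this spread.

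**Figure D2:**
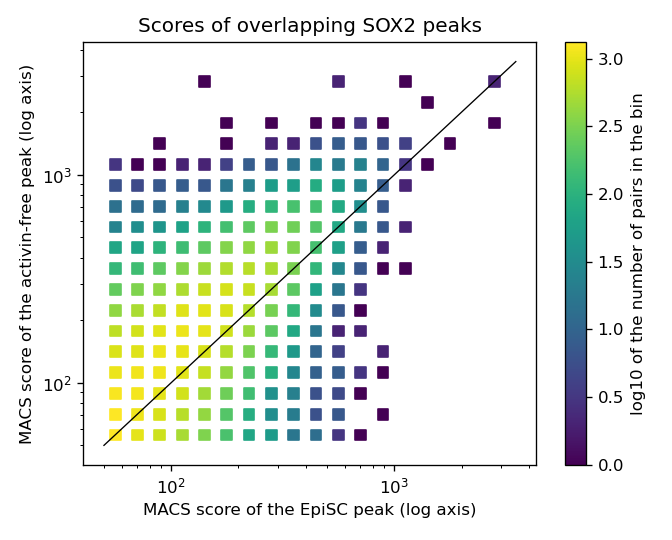
MACS scores of overlapping SOX2 peaks in EpiSCs (x axis) and in activin-free EpiSCs (y axis), both on log axes. Each square is a bin of scores, its color gives log10 of the number of pairs in it, and the line marks equal scores. More pairs lie above the line than below it, 70.7% of 50171.

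The chromosomes did not behave alike. On the 17 autosomes other than 11 and 18, there were 0.669 to 0.741 EpiSC peaks for each activin-free peak, and 76.6 to 81.0% of the EpiSC peaks were shared. Chromosome 18 had 3744 EpiSC and 3311 activin-free peaks, a ratio of 1.13, and chromosome 11 had 3690 and 3810, a ratio of 0.969. Only 65.7% (64.2 to 67.2%) and 70.5% (69.1 to 72.0%) of the EpiSC peaks of these chromosomes were shared. Chromosome X went the other way, with 2049 EpiSC peaks for 4287 activin-free peaks, a ratio of 0.478, and 36.0% (34.5 to 37.4%) of its activin-free peaks were shared. The scores of pairs moved with the numbers. The median log2 ratio of EpiSC to activin-free score was 0.12 on chromosome 18, -0.07 on 11 and -0.62 on X, and -0.50 to -0.43 on the other autosomes. These differences ran along whole chromosomes. When each was cut into 8 equal pieces, the ratio of peak numbers was 1.05 to 1.16 on chromosome 18, 0.901 to 1.03 on 11 and 0.436 to 0.530 on X, and 0.516 to 0.819 in 136 pieces of the other autosomes.

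Against the other TFs, chromosome 18 stood apart for SOX2. The share of EpiSC peaks that lay on chromosome 18, over the same share of activin-free peaks, was 1.56 for SOX2 and 0.90 to 1.02 for the other TFs. For chromosome 11 it was 1.34 for SOX2 and 1.20 for OTX2, and 0.98 to 1.02 for ZIC2, POU5F1 and POU3F1. For X it was 0.66 for SOX2, 0.63 for OTX2 and 0.73 for POU5F1, but 0.96 for ZIC2 and 1.01 for POU3F1. The only input library of the series is of the EpiSC culture, and it was not analysed here. The copy number of each chromosome in either culture is therefore not known here. Without chromosomes 11, 18 and X, 79.0% of EpiSC peaks and 55.6% of activin-free peaks were shared.

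**Figure D3:**
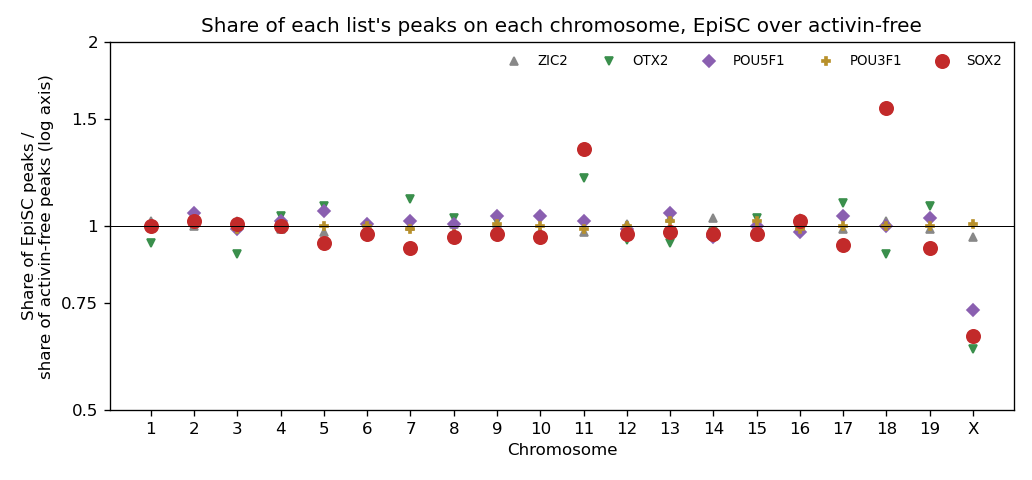
Share of the EpiSC peaks of a TF that lie on a chromosome divided by the same share of its activin-free peaks (y axis, log axis), for each chromosome (x axis) and TF (symbols). SOX2 (large circles) lies at 1.34 on chromosome 11, 1.56 on chromosome 18 and 0.66 on X, and between 0.92 and 1.02 elsewhere.

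Chromosome 18 weighed on the strongest EpiSC-only peaks. Of the 129 EpiSC-only peaks in the highest sixth of the score, 38 (29.5%, 22.3 to 37.8%) lay on chromosome 18 and 19 (14.7%) on chromosome 11, against 8.65% and 7.50% of the shared peaks in this sixth. Of the 786 activin-free-only peaks in the highest sixth of that list, 4 lay on chromosome 18 and 43 (5.47%) on X. The 5 protein-coding genes with the largest excess of EpiSC-only peaks within 50 kb of the gene start, Epc1, Fbxo38, Spink10, Ccny and Dmxl1, were all on chromosome 18. They had 6 or 7 EpiSC-only peaks each and 0 activin-free-only peaks. Epc1, with 7 EpiSC-only and 8 shared peaks, encodes a subunit of the NuA4 histone acetyltransferase complex.

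The strongest members were examined one by one. The peak in an intron of Aven, a gene for an apoptosis regulator, scored 2809.7 in EpiSCs and 2569.8 without activin. The peak in Fam155a scored 3100.0 and 1599.0. All sampled 31-mers of both occurred more than once in mm9, copies within the same tandem array included. The third shared peak, 5.52 kb downstream of the nearest Sox21 TSS, held no repeated 31-mer and scored 1566.4 and 2243.7. Sox21 encodes a SOXB2 protein related to SOX2. This site also had POU5F1 peaks of score 751.1 in EpiSCs and 1553.0 without activin, so it was strong for both TFs in both cultures. The fourth, nearest to Slc25a40, scored 1790.4 and 1493.9 and overlapped ZIC2 peaks in both cultures, as did the next, nearest to A930002H24Rik, with 1474.8 and 1252.7.

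Among EpiSC-only peaks, the one upstream of Pou5f1, chr17:35639418-35640154, stood alone with a score of 2515.9. The next was at 576.3, on chromosome 18 with Arhgap12 as the nearest gene. In the activin-free culture no SOX2 peak overlapped the Pou5f1 site, while ZIC2 peaks did in both cultures, with scores of 523.7 and 693.6. The peak was 737 bp wide, against a median of 1273 bp for EpiSC-only peaks of the highest sixth. The next, in Mpp7, in Bcas3 and upstream of Cd226, scored 505.9, 429.8 and 422.5. The sites in Bcas3 and near Cd226 had no peak of another TF in either culture.

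The strongest activin-free-only peaks lay at sites that other TF lists also held. The peak downstream of Ifna13, an interferon gene, scored 1286.7 and was 4648 bp wide, and ZIC2, OTX2 and POU5F1 peaks overlapped it in both cultures. The peak nearest to Pisd scored 948.1, and there too ZIC2, OTX2 and POU5F1 had peaks in both cultures. The other three, with scores of 945.5, 934.7 and 861.2, lay within 300 kb on chromosome 8 near 4930467E23Rik and Gm15319, and 55.6 to 83.3% of their sampled 31-mers occurred more than once in mm9.

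The genes of the TFs themselves differed between the lists. A SOX2 peak of score 3100.0 covered 100% of the 957 coding bases of Sox2 in both cultures, where the study describes carryover of the plasmid. The coding sequence of Zic2 had no SOX2 peak in EpiSCs, but 93.4% of it was covered in the activin-free culture, by 2 peaks with scores up to 720.6. For Otx2 coding bases the values were 0% in EpiSCs and 63.0% without activin, with a score of 151.9. Peaks of other TFs also covered these coding bases. For Zic2, coverage in EpiSCs and without activin was 100% and 100% by OTX2, 100% and 98.3% by POU3F1, and 0% and 100% by POU5F1. For Otx2 it was 62.7% and 69.4% by POU3F1, 0% and 63.2% by POU5F1, and 63.6% and 0% by ZIC2. Coding bases of Pou5f1 and Pou3f1 were not covered in either SOX2 list. Intron bases were covered to 65.3% in Zic2 and 8.56% in Otx2 in the activin-free SOX2 list. In the EpiSC SOX2 list the values were 0% and 8.16%. An Otx2 intron held a shared SOX2 peak (195.0 in EpiSCs and 275.8 without activin), separate from the peak over coding bases. The part of plasmid DNA in the SOX2 peaks over coding bases was not tested. Those at Zic2 and Otx2 are included in the counts for Zic2, Zic5 and Otx2 below.

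Where SOX2 peaks lay relative to genes differed little between the classes. The median distance to the nearest transcription start site (TSS) was 34.1 kb for shared peaks of both lists, 29.1 kb for EpiSC-only and 32.8 kb for activin-free-only peaks. Within 1 kb of a TSS lay 5.01% of EpiSC-only, 5.30% of activin-free-only and 3.47% and 3.50% of shared peaks. The midpoint was in an intron of a protein-coding gene for 41.4% of EpiSC-only, 38.3% and 38.2% of shared and 32.9% of activin-free-only peaks, and intergenic for 55.6%, 59.5%, 59.6% and 64.9%, respectively. SOX2 peaks were thus mostly distal in every class, and activin-free-only peaks were the least often in introns.

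In both lists, peaks near TSSs often coincided with those of ZIC2, a zinc finger TF of the epiblast. A ZIC2 peak of the same culture overlapped 7.37% of activin-free-only peaks, but 5.08% of shared peaks of that list, and in the EpiSC list the shares were 5.41% and 5.23%, a difference that changed sign under 3 of the alternatives tried. In the highest sixth of the activin-free scores these shares were 12.2% (10.1 to 14.7%) and 7.01%. Of the 2852 activin-free-only peaks with a ZIC2 peak, 40.1% lay within 1 kb of a TSS, against 2.53% of the 35871 without one. The contrast was much the same for EpiSC-only peaks (39.9% against 3.02%). It was also present in shared peaks of the EpiSC list (24.3% against 2.32%) and of the activin-free list (24.5% against 2.38%). When peaks with a ZIC2 peak were left out, the excess of 1-list-only over shared peaks within 1 kb of a TSS dropped from 1.80 to 0.394 percentage points in the activin-free list, and from 1.54 to 0.936 in the EpiSC list.

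Peaks of the other three TFs were less common at 1-list-only than at shared SOX2 peaks. POU5F1, which can pair with SOX2 on DNA, had peaks at 6.54% of EpiSC-only and 8.42% of shared EpiSC peaks, and at 12.8% of activin-free-only and 16.2% of shared activin-free peaks. For OTX2, a homeodomain TF of the anterior epiblast, the shares were 11.5% and 12.5%, and 14.8% and 18.1%. For POU3F1, a POU TF of the primed epiblast and neural plate, they were 16.6% and 18.0%, and 14.6% and 17.8%. Among peaks of similar score this order held in all sixths for POU5F1 in the activin-free list, but not for OTX2 or POU3F1 in either list. In the highest sixth POU3F1 was at 27.1% of 129 EpiSC-only and 20.0% of shared peaks, and OTX2 at 25.1% of 786 activin-free-only and 22.7% of shared peaks. No peak of any other TF was found at 68.2% of EpiSC-only, 66.6% and 60.3% of shared and 64.4% of activin-free-only peaks. The lists of the other TFs differed in length between the cultures, that of POU5F1 by a factor of 2.03, so these shares are to be compared within a culture.

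**Figure D4:**
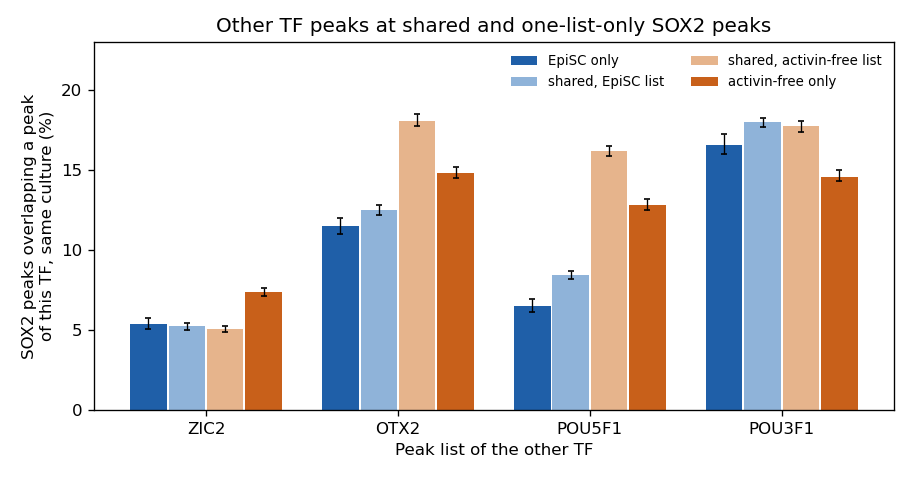
Share of SOX2 peaks (%, y axis) that overlap a peak of ZIC2, OTX2, POU5F1 or POU3F1 of the same culture (x axis), for the 4 classes of SOX2 peak. Bars are 95% Wilson intervals. ZIC2 is at 7.37% of activin-free-only and 5.08% of shared activin-free peaks, whereas OTX2, POU5F1 and POU3F1 are below the shared value in both 1-list-only classes.

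All 4 classes held the SOX 6-mer. Within 100 bp of the midpoint it was present in 83.3% of EpiSC-only, 86.6% and 85.6% of shared and 84.6% of activin-free-only peaks, compared with 56.1 to 57.0% of windows of the same length 1000 bp away. The small difference in the activin-free list changed sign at a score of at least 100. Its forms ACAAAG and ACAATG occurred in 33.8% and 27.9% of EpiSC-only peaks, 39.4% and 30.3% of shared EpiSC peaks, and 35.5% and 26.7% of activin-free-only peaks. In the flanks these were 17.4 to 18.3% and 13.7 to 14.4%. The composite SOX-octamer site is known from enhancers bound by SOX2 and POU5F1 together. It was sought as CATTGT, any base, ATG, C or T, A or T, and AAT, without mismatches. Composite sites with CTTTGT, which is ACAAAG on the other strand, or with other departures were not counted. This strict form was found at no more than 0.0232% of peaks in any class. It was at 9 of 38723 activin-free-only peaks, against 1 of 77446 flanking windows. The octamer alone was at 2.67% of EpiSC-only peaks (flanks 2.63%), 3.17% and 3.23% of shared peaks (2.94% and 2.84%) and 3.74% (3.55 to 3.93%) of activin-free-only peaks (2.96%, 2.84 to 3.08%). TGTGGATT, a core of FOXH1 sites, and GTCTAGAC, a palindromic SMAD site, were at 0.982 to 1.18% and 0.112 to 0.140%, with flanking values of 0.884 to 0.902% and 0.125 to 0.153%. TGTGGATT exceeded its flanks most in shared EpiSC peaks, with 1.18% (1.09 to 1.28%) against 0.884% (0.828 to 0.945%). CAGGTG was less frequent than in flanks (10.6 to 11.2%) in every class, with 5.98% in EpiSC-only and 9.80% in activin-free-only peaks. All motifs were sought on both strands, and SOX-octamer and octamer matches overlap.

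At TSSs the classes differed in sequence. Within 1 kb of a TSS there were 2051 activin-free-only peaks, of which 65.7% (63.6 to 67.7%) held the SOX 6-mer. Among the 715 EpiSC-only peaks near TSSs the share was 80.0% (76.9 to 82.8%), and it was 84.5% and 83.0% in shared ones, while flanks were at 44.7 to 47.8%. CCCGCCC, the GC box bound by SP and KLF factors and common in CpG island promoters, was at 15.3% of the activin-free-only peaks near TSSs, above their flanks (4.34%). In the other classes it was at 2.04 to 3.22%, below their flanks (5.24 to 6.92%). ZIC2 peaks of the same culture overlapped 55.7% of these activin-free-only peaks, against 35.5 to 43.1% in the other classes. Activin-free-only peaks near TSSs thus combined fewer SOX 6-mers, more GC boxes and more ZIC2 peaks, with a median GC content of 45.3% against 39.8 to 41.3%.

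**Figure D5:**
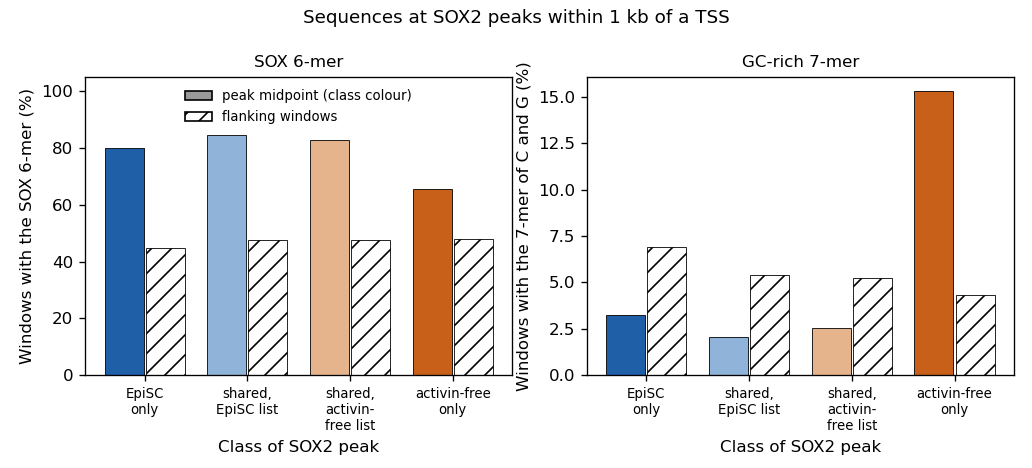
Share of 201-bp windows (%, y axes, each from 0) with the SOX 6-mer (left) and the GC box (right) at SOX2 peaks within 1 kb of a TSS, by class (x axes). Filled bars are windows at peak midpoints and hatched bars are flanking windows. Activin-free-only peaks have the SOX 6-mer at 65.7%, below the other classes, and the GC box at 15.3%, above them.

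A large group of SOX2 sites was in LINE-1 retrotransposons. In these elements, ORF1 encodes an RNA-binding protein and ORF2 the endonuclease and reverse transcriptase. The stretch from the end of ORF1 to the start of ORF2 lay at the midpoint of 3369 EpiSC peaks (5.29%, 5.12 to 5.47%) and 3915 activin-free peaks (4.46%, 4.33 to 4.60%). In the lists of the other TFs it was found at 0 to 8 peaks, with 0 of 121805 for ZIC2 in EpiSCs, which allows a share of up to 0.00246%. By class, it was at 7.21% of EpiSC-only, 4.74% and 4.24% of shared and 4.73% of activin-free-only peaks, and in 0.363 to 0.675% of flanking windows. The stretch was defined on peaks of the EpiSC SOX2 list alone. Comparisons of its share between the lists, the classes and the TFs are therefore not independent of that choice. It itself holds SOX 6-mers, so the share of these windows with the 6-mer is not given. Median scores of the LINE-1 peaks were 67.9 (EpiSC only), 102 and 116 (shared) and 70.5 (activin-free only), against 65.7, 111, 156 and 75.3 for the other peaks of these classes. Of 30154 copies of the stretch found in mm9, 18.7% overlapped an EpiSC peak, 23.6% an activin-free peak and 13.2% both. For 88.5 to 93.5% of these peaks, most sampled 31-mers occurred more than once in mm9, so reads could not always be assigned to 1 copy, and how such reads were treated is not given in the sources used here. The shared share was 69.5% (67.9 to 71.0%) for LINE-1 peaks of the EpiSC list and 78.1% for all others, and 53.2% against 56.0% in the activin-free list.

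Genes were taken with their peaks within 50 kb of the gene start. An EpiSC-only peak was near 34.8% of all 22350 protein-coding genes and an activin-free-only peak near 65.8%. Genes with peaks in the EpiSC list alone made up 3.02%, and those with peaks in the activin-free list alone 14.7%. Most genes of each list below therefore had peaks in both cultures, as was the case for genes at large.

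Of 20 genes of the activin and Nodal pathway, 11 (55.0%, against 34.8% of all genes) had an EpiSC-only peak. An activin-free-only peak was near 12 (60.0%, against 65.8%). Inhba, which encodes the activin A subunit, reached a score of 503.2 in EpiSCs and 624.9 without activin. The receptor gene Acvr2a reached 361.7 and 396.7, and Smad2, the gene of a signal transducer on chromosome 18, 566.2 and 458.4. Gdf3, a Nodal-related ligand gene, reached 187.4 and 339.9, at a shared peak 32.2 kb downstream of its start, in an exon of Apobec1. The Nodal antagonist gene Cer1 reached 158.8 and 226.4 at 2 different shared sites. The first of these scored 190.2 without activin, and the second scored 124.3 in EpiSCs. The SMAD corepressor gene Skil reached 165.1 and 219.6. Lefty1 and Lefty2 are feedback inhibitor genes of Nodal signaling. Between Lefty2 and Lefty1, chr1:182854728-182855379, an EpiSC-only peak of score 173.6 lay 10.1 kb upstream of Lefty1, and Lefty1 had no activin-free peak. It overlapped ZIC2 (87.8) and OTX2 (158.1) peaks of EpiSCs, and none of the 5 TFs had a peak there without activin. Lefty2 had in addition an EpiSC-only peak of 72.2 and an activin-free-only peak of 73.0, and no shared peak. Other inhibitors of the list differed, with 4 shared EpiSC peaks at Cer1 and 3 at Skil. Nodal itself had 1 peak, in the activin-free list alone, 42.5 kb upstream of the gene with a score of 57.2, and the type I receptor gene Acvr1b likewise had 1 of 64.8. Inhbb, Acvr2b and Foxh1 had no SOX2 peak in either list.

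All 15 pluripotency genes that could be matched had an activin-free peak (100%, against 81.7% of all genes), and 12 had an EpiSC peak (80.0%, against 70.0%). Activin-free-only peaks were near 11 of them (73.3%, against 65.8% of all genes) and EpiSC-only peaks near 4 (26.7%, against 34.8%). Sox2 had 6 EpiSC and 5 activin-free peaks, among them a shared site 11.9 kb upstream that scored 232.6 and 141.6, and a nearer one, 1.39 kb upstream, that scored 200.2 and 389.9. Pou5f1 had 3 EpiSC-only peaks and 1 shared weak one (51.8 and 56.2). The KLF genes, which support naive pluripotency, had shared peaks that scored higher without activin, 202.7 and 587.2 at Klf2 and 203.6 and 440.2 at Klf4. Lin28b, which encodes a let-7 inhibitor, followed with 236.1 and 436.2. Dppa3, next to Gdf3, had 187.4 and 339.9 from the same peak in Apobec1, 48.5 kb upstream of Dppa3. Nanog had no shared peak, with 1 EpiSC-only peak of 55.2, 3.93 kb upstream. Its activin-free-only peaks lay farther away. The one of 135.5 was 32.6 kb upstream, and the one of 75.3 was 35.2 kb downstream, in an exon of Slc2a3. Mycn had 1 EpiSC peak (80.1), which was shared, and 5 activin-free peaks, the highest (190.2) 1.59 kb upstream. Sall4 had 4 EpiSC peaks, all shared, up to 138.9, and 6 activin-free peaks up to 183.4. Esrrb, Tbx3 and Lin28a had activin-free peaks alone, with highest scores of 74.0, 66.0 and 83.1.

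Of 12 epiblast genes, 6 had an EpiSC-only and 10 an activin-free-only peak. Zic5 and its neighbor Zic2 shared a peak of 301.2 in EpiSCs, which scored 623.9 without activin. Their highest activin-free peaks, 740.1 and 720.6, were at other sites. The first was 49.2 kb downstream of the Zic5 start, with an EpiSC partner of 267.0. The second was the activin-free-only peak over Zic2 coding bases. The de novo DNA methyltransferase genes Dnmt3b and Dnmt3a scored up to 261.7 and 147.0 in EpiSCs and 562.9 and 248.3 without activin. Otx2 went from 5 to 11 peaks and from a highest score of 262.2 to 437.2, and Sox4 from 292.9 to 396.5. Fgf5, a marker of the primed epiblast, had 3 EpiSC peaks up to 84.7 and 5 activin-free peaks up to 185.9, at different shared sites. The first site scored 174.1 without activin, and the second scored 52.7 in EpiSCs. Cdh1, the E-cadherin gene, had 2 peaks, in the activin-free list alone, with a highest score of 117.9. Pou3f1 had none in either list.

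Neural plate genes mostly had shared peaks. Of 22 matched genes, 18 (81.8%) had a shared peak, against 61.8% of all genes, 11 had an EpiSC-only peak and 10 (45.5%) an activin-free-only peak, against 34.8% and 65.8%. Besides Sox21, described above, the highest scores were at Otx1, with 821.8 in EpiSCs and 581.9 without activin, Fezf2 (317.9 and 611.1), Rax (492.6 and 543.0), Pou3f3 (272.6 and 532.2) and Zic1 (305.2 and 505.6). These genes encode TFs of the forebrain, the eye field and the dorsal neural plate. At Nes, the intron peak scored 72.7 in EpiSCs and 125.2 without activin. The 2 further peaks, of 119.4 and 68.1, were in EpiSCs only. They lay 35.3 kb upstream, in an intron of Isg20l2, and 10.5 kb upstream, respectively. Pax6 had a shared peak that was higher in EpiSCs (148.3 against 72.9) and an EpiSC-only peak of 72.9, both over its exons. Lhx5 had 1 EpiSC-only peak of 66.7 and no activin-free peak, and Irx3 the reverse, with 95.2. Hes5 had none in either list.

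Of 14 primitive streak and endoderm genes, 10 had a shared peak (71.4%, against 61.8% of all genes), 4 (28.6%, against 34.8%) an EpiSC-only peak and 5 (35.7%, against 65.8%) an activin-free-only peak. Sox17, an endoderm regulator, had the highest scores, 261.5 in EpiSCs and 473.0 without activin, followed by Eomes (167.1 and 247.6), Lhx1 (245.1 and 177.3), Cer1, Fgf8 (187.6 and 170.0) and Tbx6 (92.7 and 176.4). Gsc, an organizer gene, had 1 peak of 78.4 in the activin-free list alone. Mesp1, Wnt3 and Evx1 had no SOX2 peak. Of the 60 listed genes with peaks in both lists, 48 (80.0%) had their highest score in the activin-free list. This is a maximum over all peaks within 50 kb, those in 1 list only included, and the activin-free list is the longer. It is thus not the same measure as the 70.7% of overlapping pairs genome-wide in which the activin-free score was the higher. The share over all protein-coding genes is not given here, and neighbors such as Gdf3 and Dppa3 share peaks. The 11 genes with the higher value in EpiSCs included Lefty2, Pou5f1, Pax6 and Fgf8, and also Smad2 on chromosome 18 and Otx1 and Lhx1 on chromosome 11, where pair scores stood apart.

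The largest excess of activin-free-only peaks was in clusters of related genes. On chromosome 13, Btn1a1 had 15 activin-free-only peaks and 1 EpiSC-only peak within 50 kb, the adjacent Btn2a2 14 and 2, and the nearby histone genes Hist1h2af and Hist1h3g 12 and 2 each. The windows of these genes overlap, so they share most peaks. OTX2 peaks of the activin-free culture overlapped 10 of the 15 at Btn1a1 and 11 of the 12 at each histone gene. The last of these genes was Zfp157 on chromosome 5, which encodes a zinc finger protein, with 11 activin-free-only peaks and 0 EpiSC-only peaks, 9 of them without any other TF.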

How the data were processed

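The data are SOX2 ChIP-seq peak lists of EpiSCs and activin-free EpiSCs, with 1 library each. Per the study's methods and the submitters' processing notes, the authors used Bowtie2 for alignment to mm9 and MACS1.4 to call peaks in each library on its own, with input DNA as the control and a band width that differed from the default. The deposited score is -10 log10 of the peak p-value, and the deposited start and end are genome positions, given here counted from 1. How reads that map to several places were treated is not given in the sources used here. The lists carry no read counts or coverage, so depth is unknown. The input library of the series is of the EpiSC culture, and it was not analysed here. No input library of the activin-free culture is in the series.

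Peaks on chromosomes 1 to 19 and X were compared by overlap of at least 1 bp. TSS distances were measured from midpoints, with 86803 TSSs taken from GENCODE vM1, which lists 22350 protein-coding genes there. Its genome, NCBIM37, has the chromosomes of mm9. Of 82 listed genes, 80 were matched by symbol, and Tfcp2l1 and Sox1 are not analysed here. Sequence was searched in windows of 201 bp at midpoints and in windows 1000 bp to either side. A window was called repeated where at least 50% of its 31-mers, taken every 10 bp, occurred more than once in mm9. It was called LINE-1 where it held at least 10 of the 249 words of 12 bases of a consensus. This consensus was built from EpiSC SOX2 peaks and identified as LINE-1 by its reading frames. Copies in the genome were runs of at least 10 such words.

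The members and gene lists were chosen with earlier results of these data known. Genes named are, for each list, the 6 with the highest-scoring peak within 50 kb and those with peaks in 1 list alone, the loci Sox2, Nes, Fgf5, Pax6, Mycn, Nanog, Nodal and Sall4, the 5 highest-scoring peaks of each class (shared pairs ranked by the lower score, without peaks over Sox2) and the 5 genes with the most one-sided counts in each direction. Lefty2, genes without peaks, chromosomes 11, 18 and X, the LINE-1 stretch, the sequences CAGGTG and CCCGCCC, and the peaks near TSSs were singled out after their values were seen. Alternatives comprised reciprocal overlap, a gap, a score of at least 100, the 50000 highest-scoring peaks, autosomes alone, other TSSs and other windows, and 3 were added after the data were seen. Overlap and TSS distance were also tested on simulated lists. Calculations used Python 3.11.15, numpy 2.4.6, pandas 2.3.3, scipy 1.17.1, numba 0.67.0 and matplotlib 3.10.9.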

Additional observations from a re-analysis of the deposited data

Results flagged for a closer look

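SOX2 peaks outside chromosomes 1 to 19 and X entered no comparison above. There were 79 in the EpiSC list and 126 in the activin-free list. In EpiSCs 6 were on chromosome Y and 73 on unplaced sequence, with a highest score of 1084.5. In the activin-free list 2 were on chromosome Y and 124 on unplaced sequence, with a highest score of 1169.4. Of the unplaced peaks, 53 in each list overlapped a peak of the other.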

How the results depend on the processing

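No paired analysis was possible because each culture has 1 library. Of the recomputed values, 21 moved by less than their counting interval (for counts, less than 1.5 times), 35 moved further and 4 changed sign. Causes were not tested.

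The shares of shared EpiSC and activin-free peaks became 71.3% and 51.7% with reciprocal overlap of 50%, 79.7% and 58.0% with a gap of up to 500 bp, 79.7% and 51.8% at a score of at least 100, and 67.7% and 66.8% among the 50000 highest-scoring peaks. The activin-free share was 56.9% on autosomes alone. The EpiSC share was 79.0% without chromosomes 11, 18 and X and 76.4% among peaks outside repeated sequence.

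At a score of at least 100, shared peaks exceeded 1-list-only peaks in median score by 48.4 and 98.3 and in width by 90.0 and 195 bp (EpiSC and activin-free lists). Among the 50000 highest-scoring peaks the score difference was 52.6 in the EpiSC list and the width differences were 131 and 163 bp. With reciprocal overlap the activin-free width difference was 211 bp.

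Differences in percentage points, 1 list only minus shared, moved as follows. Within 1 kb of a TSS they were 0.572 and 1.01 at a score of at least 100, 1.09 and 1.13 among the 50000 highest-scoring peaks, and 0.936 and 0.394 without ZIC2 peaks. For the SOX 6-mer they were -4.12 in the EpiSC list at a score of at least 100 and -4.75 within 50 bp of the midpoint. In the activin-free list the difference was -2.27 with reciprocal overlap and turned from -0.925 to 0.129 at a score of at least 100. For ZIC2 the EpiSC difference of 0.178 turned to -0.133 with reciprocal overlap, -1.10 at a score of at least 100 and -0.302 among the 50000 highest-scoring peaks, and the activin-free one was 1.76 at a score of at least 100. For any other TF the differences were -3.58 and -2.24 at a score of at least 100, and -3.20 and -2.48 among the 50000 highest-scoring peaks.

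Of 80 listed genes, 34 had an EpiSC-only peak, which became 18 at a score of at least 100 and 19 within 20 kb. As reported, within 50 kb, 34.8% of all protein-coding genes had one.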
